A study of Mus musculus with 12 samples.

Results

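Kruppel-like factors were followed as 10 genes of the 35727 in a table of bulk RNAseq counts from mouse cells: *Klf2*, *Klf3*, *Klf4*, *Klf5*, *Klf6*, *Klf7*, *Klf9*, *Klf10*, *Klf13* and *Klf15*. A gene was a member when its Ensembl identifier carries one of these symbols in the GENCODE M21 annotation, a rule that uses names and no measured value, although the symbols were listed with earlier results of these data known. All 10 members were found and all 10 passed the filter on low counts. The table holds 17 *Klf* genes, and the other 7 were followed only as part of a further list.

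Kruppel-like factors are zinc finger transcription factors that bind GC-rich and CACC-box DNA, and they share their DNA-binding end while differing in the rest of the protein. In endothelium KLF2 and KLF4 are induced by laminar flow through the MEKK3, MEK5 and ERK5 kinases and MEF2 factors, and they promote a quiescent, anti-inflammatory state. Other members act in mesenchymal cells and in muscle: KLF5 in proliferation and vascular remodelling, KLF10 downstream of TGF-beta, KLF9 and KLF15 downstream of glucocorticoid receptor, and KLF3 as a repressor.

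The cells were fibroblasts cultured from pooled hearts of neonatal mice, which the methods describe as C57BL/6J or carrying *Tcf21*-CreERT2 with a *Rosa26*-tdTomato reporter without saying which were used here. Fibroblasts were held on magnetic beads by THY1. The paper added a prior step that removes PECAM1-positive cells, in the section that holds the bulk RNAseq. *Sox17*-*Erg* samples were infected with retrovirus carrying *Sox17* and *Erg*, genes for an endothelial SOX factor and an ETS factor, and are labelled as induced endothelial cells, while control samples carry the name of the pMX retroviral backbone and are labelled as fibroblasts. RNA was taken at Day 3, Day 7 and 4 weeks in both, with 2 libraries in each of the 6 groups and 12 in all. All cultures had been moved to the endothelial medium EGM2. The sources used here do not say whether the libraries of a group came from separate isolations, so p values measure the spread between these libraries, which may be technical, and they name no sort before RNA isolation.

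Library totals ranged from 19011635 to 41240449 counts. *Sox17* lay between 431.7 and 1036 CPM in the 6 *Sox17*-*Erg* libraries and at most 0.416 CPM in the controls, and *Erg* lay between 17.1 and 65.2 CPM against 0.0728 to 2.27 CPM. CPM are read counts scaled to a common library size, here after TMM normalization. Summed over 10 endothelial markers, the level was 314.2 to 775.2 CPM in *Sox17*-*Erg* libraries and 21.0 to 61.7 CPM in controls. The 8 cardiac fibroblast markers summed to 8943 to 31230 CPM in *Sox17*-*Erg* libraries and 12800 to 30140 CPM in controls, ranges that overlap over all times, while at 4 weeks the sums of 8943 and 9985 CPM lay below those of 14260 and 12800 CPM. Of these 8 genes 1, 3 and 4 were lower (*Tcf21*, *Pdgfra*, *Dcn* and *Lum* at 4 weeks) and 0 higher at the 3 times, with medians of -1.20, -1.04 and -1.18 on the log2 scale. Leaving out 1 library at a time gave 0 to 4, 1 to 4 and 1 to 4 lower fibroblast markers. The lowest counts came without either Day 3 control or *Sox17*-*Erg* Day 3 replicate 1, without control Day 7 replicate 2 or *Sox17*-*Erg* Day 7 replicate 1, and without either *Sox17*-*Erg* 4-week library, while without either 4-week control the 4-week count was 2. Under a replicate block within time points, 5 fibroblast markers were lower at Day 3 and 1 was higher at Day 7. None of the endothelial and fibroblast markers was at 0 in any library. In such bulk samples fewer cells of a type and less RNA per cell cannot be told apart.

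Promoters were read from RefSeq windows of GRCm38.p6, which matched 8 of the 10 members, not *Klf5* and *Klf10*. The 250 bases before each RefSeq start were searched on both strands. The stretches below are shown because *Klf2* and *Klf4* are the flow-induced members and *Klf15* and *Klf4* are members whose counts differed between treatments. Capitals mark a match to the MEF2 motif in *Klf2* and the E-box CACGTG, the motif of CLOCK and other basic helix-loop-helix factors, in *Klf4* and *Klf15*.
Klf2: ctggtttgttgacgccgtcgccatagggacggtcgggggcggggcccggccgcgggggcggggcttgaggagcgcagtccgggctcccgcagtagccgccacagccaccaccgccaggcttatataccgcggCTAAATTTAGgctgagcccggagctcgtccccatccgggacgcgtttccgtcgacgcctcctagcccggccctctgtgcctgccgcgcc
Klf4: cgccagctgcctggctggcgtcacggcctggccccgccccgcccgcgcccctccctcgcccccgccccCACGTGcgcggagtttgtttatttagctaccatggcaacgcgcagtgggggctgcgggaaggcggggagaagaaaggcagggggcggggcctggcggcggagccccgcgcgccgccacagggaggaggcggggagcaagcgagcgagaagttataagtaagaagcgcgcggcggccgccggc
Klf15: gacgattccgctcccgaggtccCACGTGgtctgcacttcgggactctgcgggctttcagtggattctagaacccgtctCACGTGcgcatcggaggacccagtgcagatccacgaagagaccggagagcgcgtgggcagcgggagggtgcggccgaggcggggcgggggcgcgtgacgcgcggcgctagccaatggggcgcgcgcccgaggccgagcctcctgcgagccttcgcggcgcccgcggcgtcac
The *Klf2* stretch (chr8:72318812-72319032, plus strand) stops where the annotated gene begins, and its MEF2 match lies 118 to 109 bases before the RefSeq start. *Klf2* was the only 1 of the 8 members with this match, which 0.508% of all 32851 windows of that length hold. The *Klf4* stretch (chr4:55532476-55532725, minus strand) has its E-box 182 to 177 bases before the start. The *Klf15* stretch (chr6:90462326-90462575, plus strand) has 2, at 228 to 223 and at 172 to 167 bases before the start. CACGTG was found in 3 of the 8 members (*Klf4*, *Klf6* and *Klf15*) and in 6.02% of all windows. GGGCGG, the GC box, was found in 7 of 8, all but *Klf9*, and in 32.7% of all windows. CACCC was found in 6 of 8 and in 52% of all windows, and it shares 1 base with a GGGCGG match in *Klf3* and in *Klf13*. ATTGTT, a SOX core, was found in *Klf9* only of the 8 and in 9.42% of all windows, while CCGGAA, an ETS core, was found in 0 of 8 and in 12% of all windows. These matches describe letters in these windows and nothing more.

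The members differed widely in level, which was compared between genes as CPM per kilobase of annotated exon. In control cells at Day 3, *Klf6* was highest at 81.3 CPM per kilobase, followed by *Klf9* at 40.8 and *Klf13* at 25.4. *Klf2* at 15.7 and *Klf15* at 13.2 overlapped in their libraries, and *Klf5* was lowest at 0.850. At 4 weeks the control order was led by *Klf9* at 105.4, above *Klf6* at 69.9, and *Klf5* remained lowest at 0.699. In *Sox17*-*Erg* cells at 4 weeks *Klf9* at 94.4 and *Klf6* at 74.8 overlapped, *Klf4* at 26.2 overlapped with *Klf13* at 30.3, and *Klf5* at 5.84 overlapped with *Klf7* at 7.07. The places in the order depend on the length used: with the longest transcript in place of all exons, *Klf3* moved from 9.80 to 21.1 CPM per kilobase in control cells at Day 3.

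**Figure D1:**
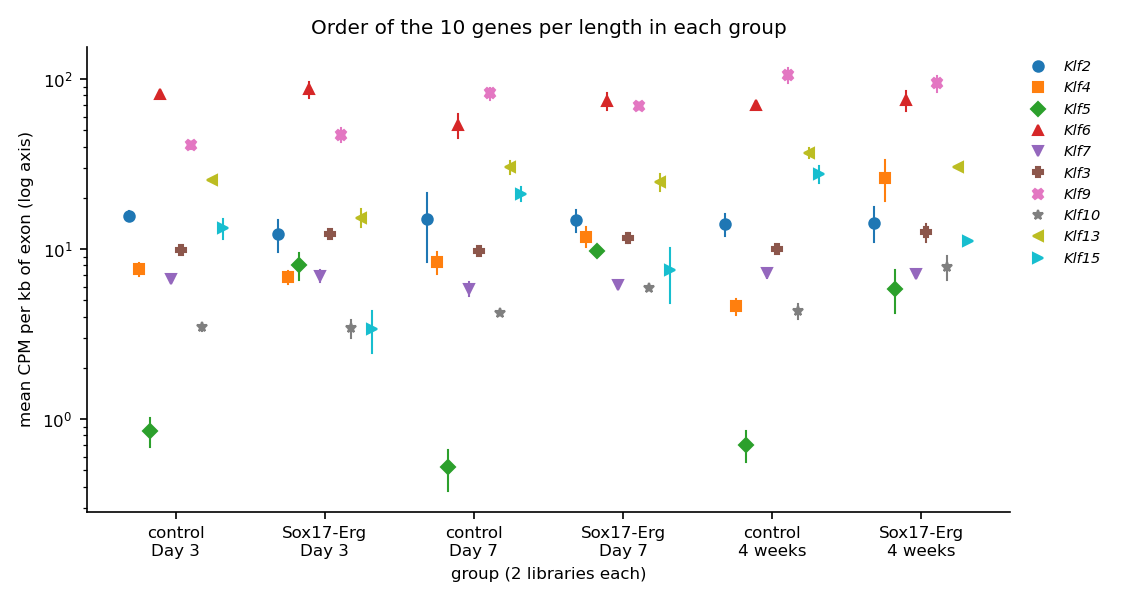
Mean CPM per kilobase of exon (vertical log axis) for each of the 10 members in each of the 6 groups, with bars from the lower to the higher of 2 libraries. *Klf6* and *Klf9* lead in every group. *Klf5* is lowest in all 3 control groups and lies above some other members in *Sox17*-*Erg* cells at Day 3 and Day 7. In *Sox17*-*Erg* cells at 4 weeks its mean is lowest (5.84) but overlaps with *Klf7* (7.07), which is lowest when the longest transcript is used.

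Whether Kruppel-like factors differed between *Sox17*-*Erg* and control cells was tested at each time point with edgeR's quasi-likelihood test and Benjamini-Hochberg adjustment over 15506 genes, called at an adjusted p under 0.05. Adjusted p values below come from this test, changes are *Sox17*-*Erg* minus control on the log2 scale, and errors of changes are standard errors. At Day 3, 1 of 10 members was higher (*Klf5*) and 2 were lower (*Klf13* and *Klf15*), where 7.19% and 5.13% of all tested genes were called higher and lower. At Day 7, 1 was higher (*Klf5*) and 1 was lower (*Klf15*), against 9.48% and 7.93% of all genes. At 4 weeks, 3 were higher (*Klf4*, *Klf5* and *Klf10*) and 1 was lower (*Klf15*), against 11.9% and 11%. For the mean difference over the 3 time points, which uses the same libraries again, 4 were higher (*Klf3*, *Klf4*, *Klf5* and *Klf10*) and 2 lower (*Klf13* and *Klf15*), against 22% and 20.3%. In a list of 10 genes each gene is a large share, and the members' counts were not tested against these backgrounds. The median change of the members was 0.02, 0.16 and 0.06 at Day 3, Day 7 and 4 weeks, and that of all genes was 0.01, 0.01 and -0.01. With libraries of the same number paired within each time point, a fit added after seeing the data, 4 members in place of 1 were higher at Day 7. The added members were *Klf4* (0.51, adjusted p = 0.027), *Klf6* (0.46, adjusted p = 0.0445) and *Klf10* (0.49, adjusted p = 0.0155). Over all tested genes, 2142 in place of 1470 were higher at Day 7 under that fit.

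**Figure D2:**
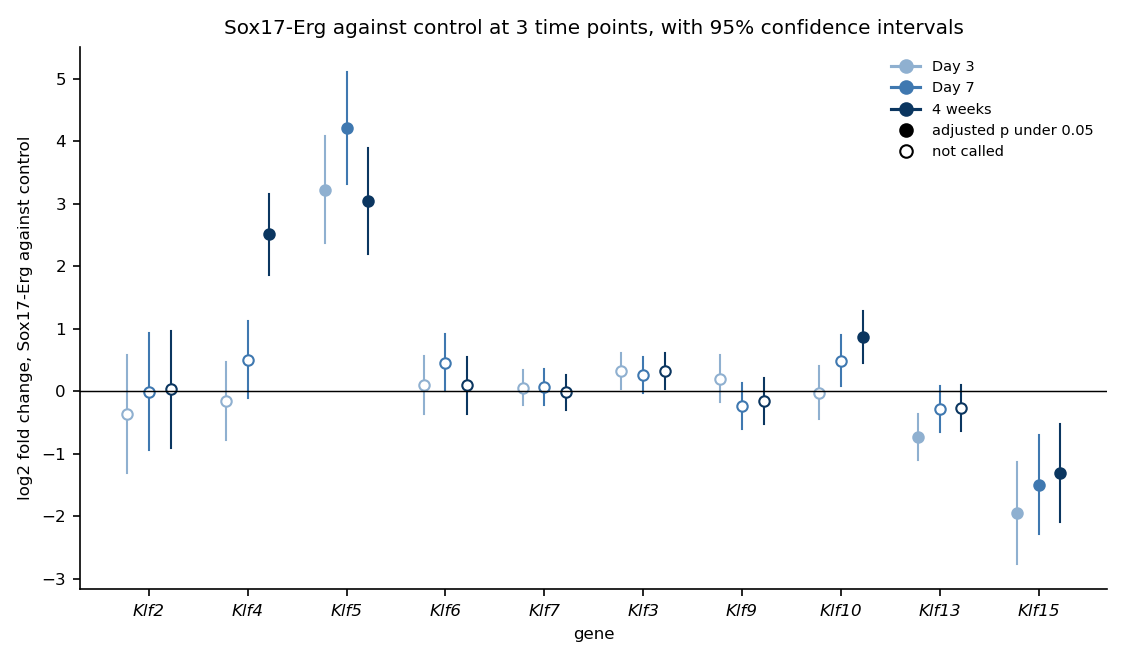
Change of each member, *Sox17*-*Erg* against control, on the log2 scale at Day 3, Day 7 and 4 weeks, with bars for the 95% interval and filled points for an adjusted p under 0.05. *Klf5* lies far above 0 at all 3 times, *Klf15* below 0 at all 3, and *Klf4* above 0 with its whole interval only at 4 weeks.

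*Klf2* (chr8:72319033-72321656, plus strand), the flow-induced factor that drives eNOS and thrombomodulin, did not differ detectably. In control libraries replicates 1 and 2 were at 27.0 and 31.0 CPM at Day 3, 39.6 and 15.5 CPM at Day 7, and 29.6 and 22 CPM at 4 weeks. In *Sox17*-*Erg* cells they were at 17.7 and 27.4 CPM at Day 3, 31.4 and 23.2 CPM at Day 7, and 32.5 and 20.2 CPM at 4 weeks. The replicates lay far apart, most of all in the Day 7 controls, and the groups overlapped at each time. The changes were -0.36 ± 0.42, -0.01 ± 0.42 and 0.03 ± 0.41, with adjusted p values of 0.606, 0.992 and 0.977. The 95% interval of the mean difference ran from -0.66 to 0.43, so a fall or rise of a size inside it was not detectable here.

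*Klf4* (chr4:55527143-55532466, minus strand), the other flow-induced factor and a reprogramming factor, was higher in *Sox17*-*Erg* cells at 4 weeks. Control libraries were at 25.1 and 21.0 CPM at Day 3, 29.3 and 21.6 CPM at Day 7, and 15.6 and 12.5 CPM at 4 weeks. *Sox17*-*Erg* libraries were at 22.7 and 18.8 CPM at Day 3, 40.8 and 31.3 CPM at Day 7, and 101.8 and 58.1 CPM at 4 weeks. The groups overlapped at Day 3 and were apart at Day 7 and 4 weeks, and both 4-week *Sox17*-*Erg* libraries stood above every other library. The 4-week mean was 5.69-fold higher, at 80.0 ± 30.9 CPM against 14.0 ± 2.18 CPM (SD, n = 2 each), a change of 2.51 ± 0.29 (adjusted p = 0.000406). At Day 3 the change was -0.15 ± 0.28 (adjusted p = 0.756) and at Day 7 it was 0.51 ± 0.27 (adjusted p = 0.241). The 4-week call was kept when each of the 12 libraries was left out in turn, with changes from 2.04 to 2.83.

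The size of the *Klf4* difference itself depended on time. The change at 4 weeks exceeded that at Day 3 by 2.66 ± 0.39 (adjusted p = 0.00965), the only 1 of 10 members called, where 3.21% of all genes were called. It exceeded the change at Day 7 by 2.0 ± 0.39, with an adjusted p of 0.192 that fell to 0.0194 with pairing within time points (1.96). In that comparison 0 members were called by edgeR and 0.0387% of all genes, 2 members (*Klf4* and *Klf5*) had an unadjusted p under 0.05, and DESeq2 called *Klf4*. Without a low-count filter edgeR called *Klf4* there as well (1.99, adjusted p = 1.21e-05), as it did with a block over all libraries (1.97, adjusted p = 0.0227). For Day 7 minus Day 3, 0 members were called, 0 had an unadjusted p under 0.05 and DESeq2 called 0, where 0.0838% of all genes were called. These shares of all genes are edgeR's at the adjusted threshold, and none is given for the unadjusted or DESeq2 counts. Within *Sox17*-*Erg* cells *Klf4* rose from Day 3 to 4 weeks by 1.94 ± 0.28 (3.85-fold, adjusted p = 0.00186), and within control cells the change over the same time was -0.72 ± 0.28, which missed the threshold (adjusted p = 0.0871). That control change passed with a replicate block over all libraries (-0.72, adjusted p = 0.00902), without a low-count filter (-0.70, adjusted p = 0.0105) and without *Sox17*-*Erg* 4-week replicate 1 (-0.70, adjusted p = 0.046) or 2 (-0.70, adjusted p = 0.0494). The block over all libraries takes same-numbered libraries as alike across times, although deviations of the Day 3 and 4-week controls correlated at -0.104. Over the same libraries, 4, 5 and 7 of the 10 endothelial markers were higher in *Sox17*-*Erg* cells at Day 3, Day 7 and 4 weeks. All 5 mesothelial markers were lower at 4 weeks, with sums of 115.2 to 308.9 CPM against 254.3 to 1364 CPM over all times. The endothelial counts dropped to 2 at Day 3 without *Sox17*-*Erg* Day 3 replicate 1, to 3 at Day 7 with that time fitted alone and to 4 at 4 weeks without control 4-week replicate 1. Of the mesothelial markers, 1 was lower at 4 weeks without *Sox17*-*Erg* 4-week replicate 2 and 3 without control 4-week replicate 1. The part of these cells in the *Klf4* level was not tested.

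*Klf5* (chr14:99298691-99315036, plus strand), which promotes proliferation and smooth muscle remodelling, showed the largest change of the 10 members at all 3 times. Control libraries were at 5.28 and 3.56 CPM at Day 3, 3.42 and 1.97 CPM at Day 7, and 4.39 and 2.89 CPM at 4 weeks, resting on 49 to 175 counts. With *Sox17*-*Erg* they were at 48.9 and 34.3 CPM at Day 3, 48.7 and 51.9 CPM at Day 7, and 39.0 and 21.8 CPM at 4 weeks, resting on 588 to 1765 counts. Every *Sox17*-*Erg* library lay above every control library. The gene was 9.36-fold higher at Day 3 (3.23 ± 0.38, adjusted p = 0.0017), 18.6-fold at Day 7 (4.22 ± 0.40, adjusted p = 0.00029) and 8.26-fold at 4 weeks (3.05 ± 0.37, adjusted p = 0.000607). All 3 calls were kept in each of the 12 leave-outs. No difference between these changes was called: Day 7 minus Day 3 was 0.99 (95% interval -0.17 to 2.15, adjusted p = 0.64), and 4 weeks minus Day 7 was -1.17, with an interval from -2.33 to -0.01 that excludes 0 before adjustment (adjusted p = 0.771). Summed smooth muscle and pericyte markers ran from 1643 to 4494 CPM in *Sox17*-*Erg* and 464.3 to 3482 CPM in control libraries, and 1, 4 and 3 of these 6 genes were higher and 0, 0 and 1 lower at the 3 times. The Day 7 count was 2 in 7 of the 12 leave-outs, among them *Sox17*-*Erg* Day 7 replicate 1 and control Day 7 replicate 2, and with that time fitted alone, and the 1 lower gene was lost in 11 leave-outs. With a replicate block within time points 2 were higher and 1 lower at Day 3, and 5 higher and 0 lower at 4 weeks. Whether such cells carried the *Klf5* counts was not tested.

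*Klf6* (chr13:5861482-5870394, plus strand), a widely expressed wound- and stress-induced activator, and *Klf7* (chr1:64029447-64122282, minus strand), a close relative best known in neurons, did not pass the test at any time. *Klf6* ranged over 198.3 to 366.6 CPM in the control and 285.5 to 423.8 CPM in the *Sox17*-*Erg* libraries, with medians of 306.9 and 351.3 CPM, and the groups were apart only at Day 7, where both *Sox17*-*Erg* libraries were higher. Its changes were 0.10, 0.46 and 0.10, each ± 0.20, and the Day 7 value, called only with pairing within time points, had an unpaired adjusted p of 0.159. *Klf7* ranged over 42.9 to 62.3 CPM and 49.3 to 60.8 CPM in control and *Sox17*-*Erg* libraries, which overlapped at each time. Its changes were 0.06, 0.06 and -0.02, each ± 0.13, and the 95% interval of its mean difference ran from -0.13 to 0.20. The exons of *Klf7* share 3196 bases with a gene on the other strand and those of *Klf3* share 404, and the library kit keeps strand.

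*Klf3* (chr5:64803388-64832901, plus strand), a repressor that recruits CtBP, was higher over the mean of the 3 times. Control libraries ranged from 105.7 to 116.6 CPM with a median of 110.9 CPM, and *Sox17*-*Erg* libraries from 122.1 to 157.6 CPM with a median of 138.3 CPM. No *Sox17*-*Erg* library fell within the control range. The changes of 0.33, 0.25 and 0.32, each ± 0.13, missed the threshold at single times (adjusted p = 0.122, 0.211 and 0.104). Over the 3 times the mean change was 0.30 ± 0.07, or 1.23-fold (adjusted p = 0.0101), and this was kept in all 12 leave-outs. At 4 weeks the call depended on the fit: it was made with pairing within time points (0.31, adjusted p = 0.0499) and without *Sox17*-*Erg* 4-week replicate 2 (0.45, adjusted p = 0.047).

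*Klf10* (chr15:38291463-38300706, minus strand), an early TGF-beta target that recruits the SIN3A corepressor, was higher at 4 weeks. Control libraries were at 13.8 and 15.3 CPM at Day 3, 17.2 and 17.7 CPM at Day 7, and 19.9 and 16.1 CPM at 4 weeks. Their *Sox17*-*Erg* counterparts were at 12.6 and 16.0 CPM at Day 3, 24.3 and 24.6 CPM at Day 7, and 38.0 and 27.6 CPM at 4 weeks. The groups overlapped at Day 3 and were apart at the later times. The changes were -0.02 ± 0.19, 0.49 ± 0.18 and 0.87 ± 0.18, the last being 1.82-fold (adjusted p = 0.952, 0.0989 and 0.00885). The 4-week call was lost without control 4-week replicate 2 (0.73, adjusted p = 0.0614) and without *Sox17*-*Erg* 4-week replicate 1 (0.61, adjusted p = 0.0712). The change at 4 weeks exceeded that at Day 3 by 0.89 ± 0.26, with an adjusted p of 0.115 unpaired and 0.021 with pairing within time points.

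*Klf13* (chr7:63886351-63938915, minus strand), a SIN3A-binding factor with a role in heart development, was lower at Day 3. Control libraries were at 194.6 and 188.2 CPM at Day 3, 206.5 and 247.8 CPM at Day 7, and 294.4 and 256.7 CPM at 4 weeks. *Sox17*-*Erg* libraries were at 100.9 and 128.8 CPM at Day 3, 165.9 and 207.6 CPM at Day 7, and 230.2 and 226.5 CPM at 4 weeks. The groups were apart at Day 3 and 4 weeks, and at Day 7 the higher *Sox17*-*Erg* library lay just above the lower control. At Day 3 the level was 1.67-fold lower (-0.74 ± 0.16, adjusted p = 0.0225), while the later changes of -0.28 and -0.27 had adjusted p values of 0.267. The Day 3 call was lost without control Day 3 replicate 1 (-0.71, adjusted p = 0.112), control Day 3 replicate 2 (-0.80, adjusted p = 0.0919) or *Sox17*-*Erg* Day 3 replicate 1 (-0.61, adjusted p = 0.166). The mean change over the 3 times, -0.43 ± 0.09 or 1.35-fold lower (adjusted p = 0.00567), was kept in all 12 leave-outs.

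*Klf15* (chr6:90462576-90475238, plus strand), a metabolic and anti-hypertrophic factor of heart and a direct glucocorticoid target, was lower in *Sox17*-*Erg* cells at every time. Control libraries were at 31.8 and 41.8 CPM at Day 3, 53.1 and 64.2 CPM at Day 7, and 86.3 and 68.1 CPM at 4 weeks. *Sox17*-*Erg* libraries were at 6.83 and 12.1 CPM at Day 3, 13.5 and 28.3 CPM at Day 7, and 31.3 and 30.8 CPM at 4 weeks. Every *Sox17*-*Erg* library lay below every control library, although the highest of them came close to the lowest control. The level was 3.87-fold lower at Day 3 (-1.95 ± 0.36, adjusted p = 0.0128), 2.82-fold at Day 7 (-1.50 ± 0.35, adjusted p = 0.0197) and 2.49-fold at 4 weeks (-1.32 ± 0.35, adjusted p = 0.0244).

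These *Klf15* calls were lost when single libraries were left out, and that of the mean over times was not. Each leave-out left 1 library in a group, so a lost call was not always a smaller change. At Day 3 the call was lost without control replicate 2 (-1.78, adjusted p = 0.076) or *Sox17*-*Erg* replicate 1 (-1.64, adjusted p = 0.115). At Day 7 it was lost without control replicate 2 (-1.35, adjusted p = 0.0912), without *Sox17*-*Erg* replicate 1 (-1.05, adjusted p = 0.112) and with that time fitted alone (-1.51, adjusted p = 0.0765), while without *Sox17*-*Erg* replicate 2 it was kept at a larger change of -2.16. At 4 weeks it was lost without control replicate 1 (-1.13, adjusted p = 0.122) or either *Sox17*-*Erg* replicate (-1.33 each, adjusted p = 0.118 and 0.0953). The mean change of -1.59 ± 0.20, or 3.01-fold lower (adjusted p = 0.000337), was kept in all 12 leave-outs. The 6 cardiomyocyte markers moved the same way, with 2, 2 and 5 lower at the 3 times, 0 higher, and sums of 322.6 to 682.9 CPM in *Sox17*-*Erg* against 624.9 to 1508 CPM in control libraries. The Day 3 count was 0 without *Sox17*-*Erg* Day 3 replicate 1, the Day 7 count was 0 without control Day 7 replicate 2, without *Sox17*-*Erg* Day 7 replicate 1 and with that time fitted alone, and the 4-week count was 2 without *Sox17*-*Erg* 4-week replicate 1. Under a replicate block within time points, 4 were lower at Day 3 and 5 at Day 7. Whether cardiomyocyte RNA in the cultures set the *Klf15* difference was not tested.

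*Klf9* (chr19:23141226-23168134, plus strand), a glucocorticoid- and thyroid hormone-induced factor, changed with time and not detectably with treatment. Control libraries were at 187.6 and 205.3 CPM at Day 3, 363.4 and 427.5 CPM at Day 7, and 557.4 and 457.6 CPM at 4 weeks. With *Sox17*-*Erg* they were at 205.8 and 246.3 CPM at Day 3, 324.9 and 346.9 CPM at Day 7, and 502.8 and 406.2 CPM at 4 weeks. In both treatments the libraries of each later time lay above all those of the earlier times, and between treatments they were narrowly apart at Day 3 (*Sox17*-*Erg* higher), apart at Day 7 (*Sox17*-*Erg* lower) and overlapping at 4 weeks. The treatment changes were 0.20, -0.24 and -0.16, each ± 0.17, with an interval of the mean difference from -0.28 to 0.15.

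**Figure D3:**
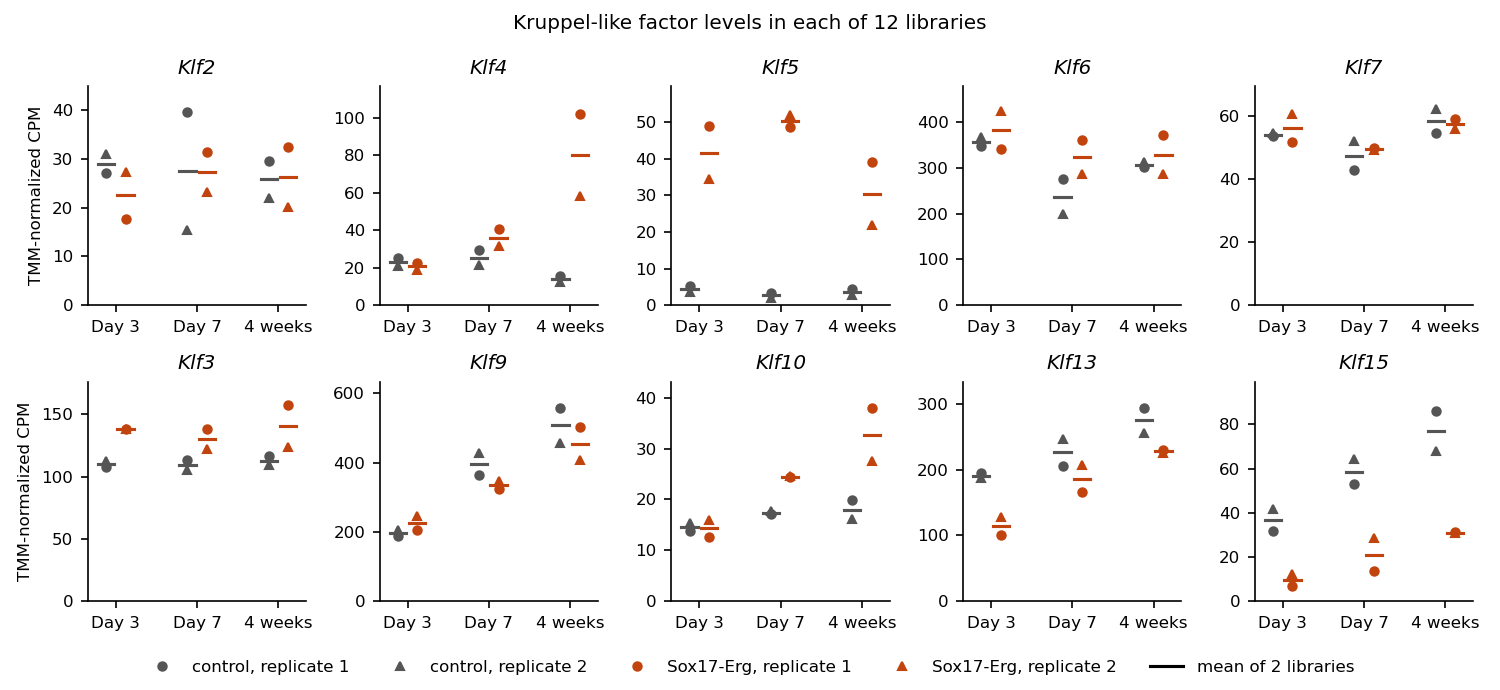
CPM of each member in each of the 12 libraries by time point, 1 panel per gene with its own linear axis from 0, control in grey and *Sox17*-*Erg* in orange, circles for replicate 1, triangles for replicate 2 and short lines for means. *Klf5* is separated at all 3 times, *Klf4* most at 4 weeks (14.0 against 80.0 CPM), *Klf15* means lie below control, and *Klf9* lies higher at later times in both treatments.

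Time in culture was compared within each treatment. In control cells, 1 of 10 members was called from Day 3 to Day 7, where 8.76% of all genes were called, and 3 rose from Day 3 to 4 weeks, where 13.9% of all genes were called higher and 26.5% in either direction. *Klf9* rose 2.01-fold by Day 7 (1.01 ± 0.17, adjusted p = 0.0116) and 2.58-fold by 4 weeks (1.37 ± 0.17, adjusted p = 0.000948). The Day 7 call was lost without control Day 3 replicate 1 (0.95, adjusted p = 0.104), control Day 3 replicate 2 (1.08, adjusted p = 0.0777) or control Day 7 replicate 2 (0.89, adjusted p = 0.0735). *Klf13* rose 1.44-fold (0.53 ± 0.16, adjusted p = 0.0412) and *Klf15* 2.10-fold (1.07 ± 0.35, adjusted p = 0.048) from Day 3 to 4 weeks. The *Klf13* call was lost in 6 of 12 leave-outs, those of each Day 3 and 4-week control and each 4-week *Sox17*-*Erg* library, with changes from 0.43 to 0.63, and the *Klf15* call in 8, which added both Day 7 controls, with changes from 0.89 to 1.26. *Klf6* was at -0.59 ± 0.20 from Day 3 to Day 7 in control cells, not called by edgeR (adjusted p = 0.101, unadjusted p = 0.0165) and called by DESeq2, which called 2 members there (*Klf6* and *Klf9*). From Day 7 to 4 weeks, 0 members were called by edgeR or DESeq2 and 0.393% of all genes by edgeR. In that comparison 2 members (*Klf4* and *Klf7*) were at an unadjusted p under 0.05. No share of all genes is given for the unadjusted and DESeq2 counts.

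In *Sox17*-*Erg* cells, 5 of 10 members rose from Day 3 to 4 weeks and 0 fell, where 15.1% of all genes were called higher and 30.7% in either direction. *Klf4* rose 3.85-fold, *Klf15* 3.26-fold (1.71 ± 0.36, adjusted p = 0.00858), *Klf10* 2.29-fold (1.20 ± 0.19, adjusted p = 0.00243), *Klf9* 2.01-fold (1.01 ± 0.17, adjusted p = 0.00312) and *Klf13* 1.99-fold (0.99 ± 0.16, adjusted p = 0.00312). The *Klf15* call was lost without *Sox17*-*Erg* Day 3 replicate 1 (1.41, adjusted p = 0.0583). *Klf9*, *Klf13* and *Klf15* thus rose with time in both treatments, and the difference in that rise was not called for any of the 3. From Day 3 to Day 7, 0 members were called by edgeR against 3.42% of all genes. There 5 were at an unadjusted p under 0.05 (*Klf4*, *Klf9*, *Klf10*, *Klf13* and *Klf15*) and 4 were called by DESeq2 (all of these but *Klf4*). The shares of all genes are edgeR's at the adjusted threshold, so they are no background for the unadjusted and DESeq2 counts. From Day 7 to 4 weeks, 0 were called by edgeR against 1.82% of all genes, with 3 at an unadjusted p under 0.05 (*Klf4*, *Klf9* and *Klf10*). DESeq2 called *Klf4* there. So did edgeR without a low-count filter (1.15, adjusted p = 8.68e-05) and with a replicate block over all libraries (1.12, adjusted p = 0.0105).

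The pathway that induces *Klf2* and *Klf4* was followed as 14 genes for MEKK2, MEKK3, MEK5, ERK5, MEF2 factors, their repressors, the mechanosensitive channel PIEZO1 and the CCM complex that restrains the kinases. At Day 3, Day 7 and 4 weeks, 2, 1 and 2 of the 14 were higher and 1, 0 and 0 lower, with medians of -0.10, 0.02 and 0.11. Of all tested genes 7.19%, 9.48% and 11.9% were higher and 5.13%, 7.93% and 11% lower at these times, and the counts of each further list stand against the same shares. *Hdac7*, a class IIa deacetylase that holds MEF2 inactive, was higher than in control at Day 7 (0.80 ± 0.10, adjusted p = 0.00114) and 4 weeks (0.61 ± 0.10, adjusted p = 0.00259), and both calls were kept in all 12 leave-outs. Its means in *Sox17*-*Erg* cells were 252.3, 255.3 and 210.3 CPM at the 3 times, and in control cells 211.9, 146.7 and 137.3 CPM, where it fell from Day 3 to 4 weeks (-0.63 ± 0.10, adjusted p = 0.0029). *Hdac5*, of the same class, was lower at Day 3 (-0.70 ± 0.17, adjusted p = 0.0293), a call lost without any 1 of the 4 Day 3 libraries. *Mef2a* was higher at 4 weeks (0.54 ± 0.12, adjusted p = 0.0123). This call was lost with that time fitted alone (0.57, adjusted p = 0.0535). It was also lost without control 4-week replicate 2 (0.48) or *Sox17*-*Erg* 4-week replicate 1 (0.38). At Day 3 the genes that were higher were *Heg1*, for a CCM partner (0.75, adjusted p = 0.0434, lost in 8 of 12 leave-outs), and *Map3k3*, the gene for MEKK3 (0.36, adjusted p = 0.0478), the latter named after its values were seen. The Day 3 count higher was 0 in 7 of the 12 leave-outs, where the *Map3k3* call was lost too, and 1 in the other 5. It was 1 with DESeq2 size factors, without a low-count filter, with that time fitted alone and with a replicate block over all libraries. Under these settings the *Heg1* call was kept and that of *Map3k3* was lost.

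Endothelial genes known to be induced by KLF2 or KLF4 did not move together. Of 5 tested, 2, 2 and 1 were higher at the 3 times and 1, 0 and 0 lower, with medians of 0.70, 0.18 and -0.63. With a replicate block within time points 1 gene was lower at Day 7, and at 4 weeks 2 were lower and 2 higher. The 4-week count lower was also 2 by DESeq2, without a low-count filter and with a block over all libraries, and 1 with that time fitted alone and in 4 of the 12 leave-outs (either *Sox17*-*Erg* Day 7 library, control Day 7 replicate 1 or control 4-week replicate 2). The Day 7 count lower was 1 by DESeq2, without a low-count filter, with a block over all libraries and without *Sox17*-*Erg* Day 3 replicate 1 or Day 7 replicate 2, and the 4-week count higher was 2 without either Day 7 control. *S1pr1*, a sphingosine-1-phosphate receptor, was higher at every time (4.31, 5.52 and 6.87, adjusted p = 0.000707, 0.000126 and 2.75e-05), and these calls were kept in all 12 leave-outs. *Tek*, the angiopoietin receptor gene, was higher at Day 3 (1.54 ± 0.19, adjusted p = 0.00239) and Day 7 (0.97 ± 0.19, adjusted p = 0.00893), and the Day 7 call was lost without control Day 7 replicate 1 (0.74, adjusted p = 0.0529) and with that time fitted alone (0.95, adjusted p = 0.0797). *Tek* is also in the endothelial marker list. *Plpp3*, a phospholipid phosphatase gene, was lower at Day 3 (-1.85 ± 0.51, adjusted p = 0.0451), a call lost in 10 of the 12 leave-outs.

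Endothelial genes known to be repressed by KLF2 or KLF4 were mostly higher. Of 9 tested, 5, 6 and 5 were higher and 0, 0 and 1 lower, with medians of 0.93, 1.02 and 0.78 where all genes were near 0. With a replicate block within time points, or without *Sox17*-*Erg* Day 7 replicate 2, 1 was lower at Day 7. *Edn1*, for endothelin-1, was higher at all times (3.37, 3.60 and 3.59, adjusted p = 0.000622, 0.0002 and 0.000107), as was *Kdr*, for the VEGF receptor VEGFR2 (4.43, 4.45 and 3.26, adjusted p = 0.00103, 0.000474 and 0.00107). *Ccl2*, for a monocyte chemoattractant, was higher at Day 3 (1.74 ± 0.14, adjusted p = 0.000422) and Day 7 (1.02 ± 0.14, adjusted p = 0.00146) and not detectably at 4 weeks (0.34 ± 0.14, adjusted p = 0.104). The calls of these 3 genes were kept in all 12 leave-outs. Several of the genes mark endothelium in their own right, *Kdr* being also in the endothelial marker list.

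Partners of the repressor members were followed as well. Of 9 cofactor genes for CtBP, SIN3, histone deacetylases and acetyltransferases, 1, 1 and 2 were higher at the 3 times and 0 lower, where 12.3%, 17.4% and 22.9% of all genes were called in either direction. These were *Hdac2* at Day 3 (0.53 ± 0.12, adjusted p = 0.0289) and 4 weeks (0.40 ± 0.12, adjusted p = 0.0449) and *Kat2b* at Day 7 (0.36 ± 0.10, adjusted p = 0.0376) and 4 weeks (0.39 ± 0.10, adjusted p = 0.0225), and each of these calls was lost in 4 or more of the 12 leave-outs. The *Hdac2* call at 4 weeks was also lost with a replicate block within time points (0.41, adjusted p = 0.0524) or over all libraries (0.40, adjusted p = 0.0538). This call and both *Kat2b* calls were lost without a low-count filter (adjusted p = 0.09 to 0.132) and with each time fitted alone (adjusted p = 0.0599 to 0.167).

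Around *Klf10*, 11 TGF-beta response genes were followed, of which 4, 4 and 3 were higher, where 7.19%, 9.48% and 11.9% of all genes were, and 0, 1 and 1 lower, where 5.13%, 7.93% and 11% were, with medians of 0.26, 0.42 and 0.24. The count higher was 1 at Day 3 without control Day 3 replicate 2 and 2 without control Day 3 replicate 1 or *Sox17*-*Erg* Day 3 replicate 1. At Day 7 it was 2 without control Day 7 replicate 2 or *Sox17*-*Erg* Day 7 replicate 1 and with that time fitted alone. *Tgif1*, for a corepressor of SMADs, was higher at all times, with the largest changes of the list (1.17, 2.02 and 2.58, adjusted p = 0.00379, 0.000142 and 2.28e-05), with the calls kept in all 12 leave-outs. *Skil*, for the SMAD repressor SnoN, was higher at all times (1.03, 1.32 and 1.02), and only its Day 3 call was lost, without control Day 3 replicate 2 (0.93, adjusted p = 0.0521). *Smad3*, for a receptor-activated SMAD, was lower at 4 weeks (-0.69 ± 0.13, adjusted p = 0.00568) in every leave-out.

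*Klf4*, *Klf6* and *Klf10* are themselves early-response genes, so 14 other immediate early genes were set beside them. Of these 2, 3 and 7 were higher and 0 lower at Day 3, Day 7 and 4 weeks, with medians of 0.70, 1.31 and 1.60. The 4-week count was 2 without *Sox17*-*Erg* 4-week replicate 1, 3 without control 4-week replicate 2 and 12 with a replicate block within time points. The Day 7 count ran from 1 without control Day 7 replicate 2 or *Sox17*-*Erg* Day 7 replicate 1 to 11 with that block, and the Day 3 count from 0 without control Day 3 replicate 2 or *Sox17*-*Erg* Day 3 replicate 1 to 6. *Jun* was higher at all times (1.69, 2.22 and 2.79, adjusted p = 0.00967, 0.00146 and 0.00028), and its Day 3 call was lost without control Day 3 replicate 2 (1.44, adjusted p = 0.0868) or *Sox17*-*Erg* Day 3 replicate 1 (1.46, adjusted p = 0.0926). *Egr3* was higher at 4 weeks (4.25 ± 0.66, adjusted p = 0.00206) in every leave-out. The 14 genes summed to 500 to 1024 CPM in control and 650.2 to 2748 CPM in *Sox17*-*Erg* libraries. The highest sum was that of *Sox17*-*Erg* 4-week replicate 1 alone, its partner being at 1159 CPM against 1024 and 500 CPM in the 4-week controls, and this library also had the highest *Klf4* and *Klf10*. Without it the 4-week changes were 2.04 for *Klf4*, still called, and 0.61 for *Klf10*, not called. Whether the 4-week *Klf4* and *Klf10* levels moved with this list for a shared reason was not tested.

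Around *Klf9* and *Klf15*, 8 glucocorticoid-responsive genes were followed, of which 3, 2 and 6 were lower at the 3 times and 0 higher, with medians of -0.95, -0.79 and -0.96. The 4-week count was 1 without *Sox17*-*Erg* 4-week replicate 1 and 3 without control 4-week replicate 1 or *Sox17*-*Erg* 4-week replicate 2. The Day 3 count ran from 0, without control Day 3 replicate 2 or *Sox17*-*Erg* Day 3 replicate 1, to 8 with a replicate block within time points, and the Day 7 count from 0, without control Day 7 replicate 2 or *Sox17*-*Erg* Day 7 replicate 1, to 6 without a low-count filter. Over the mean of the times all 8 were lower. *Sgk1*, a kinase gene, was lower at 4 weeks in every leave-out (-0.90 ± 0.14, adjusted p = 0.00207). *Nr3c1*, the glucocorticoid receptor gene, was lower at Day 7 (-0.72 ± 0.15, adjusted p = 0.012) and 4 weeks (-0.80 ± 0.15, adjusted p = 0.00522). Its Day 7 call was lost without control Day 7 replicate 2 (-0.65) or *Sox17*-*Erg* Day 7 replicate 1 (-0.53). That call was also lost with Day 7 fitted alone (-0.73, adjusted p = 0.0744). Its 4-week call was lost without *Sox17*-*Erg* 4-week replicate 1 (-0.71). The summed level of the 8 genes was 1779 to 2807 CPM in control and 815.2 to 1492 CPM in *Sox17*-*Erg* libraries, with no overlap. *Klf15* lay on the same side as this list and *Klf9* did not differ detectably.

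*Klf9*, *Klf10* and *Klf15* are also known outputs of the circadian clock, which was followed as 14 genes. Of these 0, 1 and 1 were higher and 1, 4 and 4 lower in *Sox17*-*Erg* cells at the 3 times, where 5.13%, 7.93% and 11% of all genes were lower. The Day 3 call was lost in 10 of the 12 leave-outs, and with a replicate block within time points 4 were lower at Day 3 and 2 higher at 4 weeks. The Day 7 count lower was 1 without *Sox17*-*Erg* Day 7 replicate 1 and 2 without control Day 7 replicate 2, and the 4-week count was 2 without any 1 of the 4 libraries of that time. With time from Day 3 to 4 weeks, 9 of 14 rose in control cells (5 without control Day 3 replicate 1, otherwise up to 10 in the leave-outs), where 13.9% of all genes did, and 10 in *Sox17*-*Erg* cells (7 to 11), where 15.1% did, and 0 fell in either. *Hlf*, a clock-output activator gene, was lower at Day 7 (-2.45 ± 0.41, adjusted p = 0.00447) and 4 weeks (-2.39 ± 0.40, adjusted p = 0.00301) in every leave-out, and *Ciart*, a clock repressor gene, was higher at 4 weeks in every leave-out (2.78 ± 0.31, adjusted p = 0.00036).

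**Figure D4:**
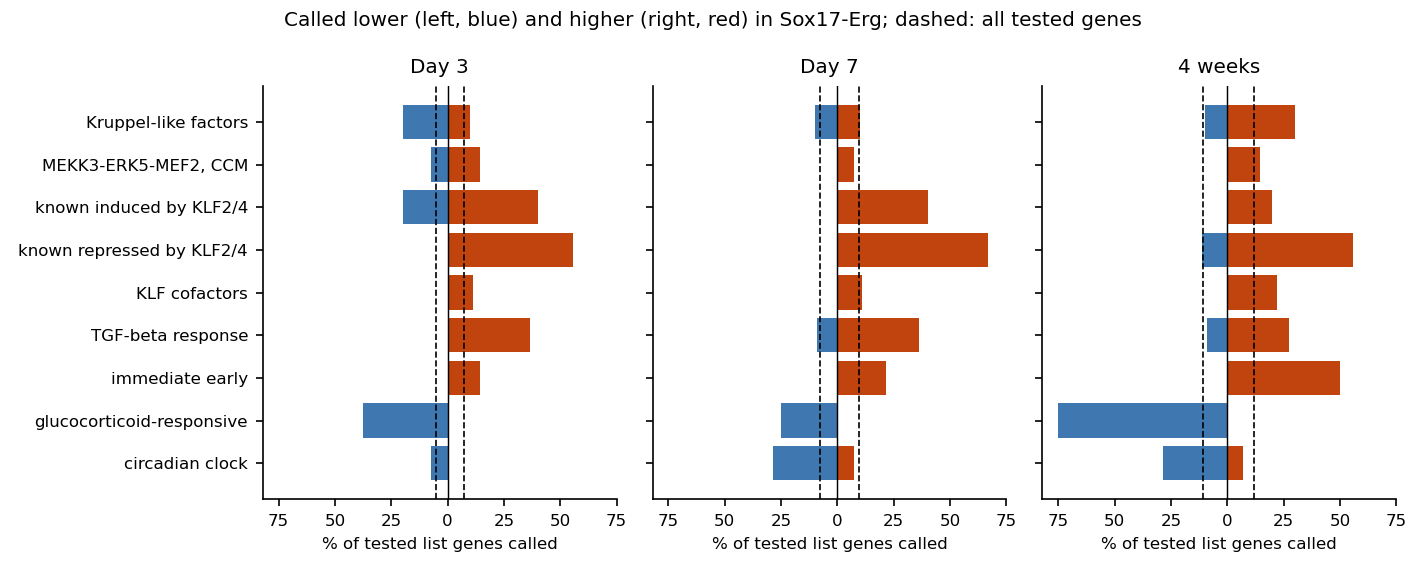
Percent of the tested genes of each list called higher (bars to the right) and lower (bars to the left) in *Sox17*-*Erg* cells, 1 panel per time, with dashed lines at the percent of all 15506 tested genes called. The glucocorticoid-responsive bars point only to the left and the immediate early bars only to the right, and lists hold 5 to 14 tested genes.

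Of the 16 other *Klf* and *Sp* family genes listed, 10 were tested, of which 1, 1 and 1 were higher and 0, 0 and 1 lower at the 3 times, or 1, 1 and 1 lower under a replicate block within time points. *Klf16*, a close relative of *Klf9* and *Klf13*, was higher at Day 3 (0.90 ± 0.20, adjusted p = 0.023), Day 7 (0.80 ± 0.20, adjusted p = 0.0261) and 4 weeks (0.91 ± 0.20, adjusted p = 0.0113). These single-time calls were lost without any 1 of the 4 Day 3 libraries, without 3 of the 4 Day 7 libraries (all but control replicate 1) and without 3 of the 4 4-week libraries (all but *Sox17*-*Erg* replicate 1). *Klf12*, for a CtBP-recruiting repressor like *Klf3*, was lower at 4 weeks (-0.73 ± 0.23, adjusted p = 0.0468), a call lost in 8 of 12 leave-outs, those of any Day 3 or 4-week library.

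As a description over the 12 libraries, which share treatment and time, the genes whose log2 CPM ran most like *Klf4* by Pearson's r were *Lama5* (0.96), *Itgb4* (0.95), *Grpr* (0.95), *Mgst3* (0.94) and *Nrg1* (0.94). Those most like *Klf2* were *Micu2* (0.79), *Itgb1* (0.78), *Gm6475* (0.76), *Cacng8* (0.74) and *Btbd8* (0.74), so no gene followed *Klf2* as closely. Among the members, *Klf13* and *Klf15* ran together (0.93), as did *Klf3* and *Klf5* (0.86) and *Klf4* and *Klf10* (0.81), while *Klf5* and *Klf15* ran opposite (-0.81).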

How the data were processed

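Bulk RNAseq of 12 libraries was used, 2 in each of 6 groups taken from the sample labels. The authors trimmed reads with high GC content (BBDuk) and quantified transcripts with Salmon, and the deposited table holds their estimated counts per gene, 35727 Ensembl genes by 12 libraries, with no normalization. The submitters' processing notes name bcl2fastq 2.20.0, Salmon, DESeq2 and the build mm10; the Salmon version and its annotation are not given in the sources used here. The estimated counts were rounded to whole numbers. Symbols and positions (GRCm38) came from GENCODE M21, which matched 35493 of the 35727 genes. No column of per-sample values was left unused.

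The 10 members and all further lists were chosen with earlier results of these data known, so a list gives no independent support. Genes were kept by filterByExpr (minimum count 10, minimum total 15), which left 15506, scaled by TMM and fitted with edgeR 4.0.16 in R 4.3.3 as 1 mean per group. Treatment at each time, time within each treatment and the differences in effect between times were tested with the quasi-likelihood test and Benjamini-Hochberg adjustment over all 15506 genes, called at 0.05. The statistics were tested on simulated data first. Alternatives were DESeq2 1.42.0, its size factors, no filter, a mean of at least 1 CPM, an adjusted p under 0.01, each time fitted alone, replicate blocks and leaving out each library; the block within time points was added after seeing the data. Deviations of same-numbered libraries from their group means correlated across treatments at 0.186 (Day 3), 0.301 (Day 7) and 0.171 (4 weeks). From these values numbers were taken as pairs within a time point in that block, a pairing seen in the data and not stated in the labels. Between times within a treatment the correlations ran from -0.11 (control, Day 7 and 4 weeks) to 0.219 (*Sox17*-*Erg*, Day 3 and Day 7). With 2 libraries a group, the sign of each correlation rests on their numbering, so these values do not show that libraries were paired. The change against control is given for every member at every time. For time within a treatment and differences in effect, values are given chiefly for members that were called. Of each further list, at most 4 called genes with the smallest adjusted p are named, with *Map3k3* added. The 5 genes most correlated with *Klf2* and with *Klf4* are named too. Promoter windows came from RefSeq (GRCm38.p6).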

Additional observations from a re-analysis of the deposited data

Results flagged for a closer look

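*Klf4* drew a closer look because its *Sox17*-*Erg* against control difference was itself tested between time points and differed. The change at 4 weeks exceeded that at Day 3 by 2.66 on the log2 scale (SE 0.39, adjusted p = 0.00965, edgeR's quasi-likelihood test with Benjamini-Hochberg adjustment). Both 4-week *Sox17*-*Erg* libraries, at 101.8 and 58.1 CPM, lay above the 4-week controls at 15.6 and 12.5 CPM, while the Day 3 libraries overlapped. The difference stayed past the threshold in all 12 leave-outs, between 2.23 and 3.00.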

How the results depend on the processing

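With 2 libraries a group, small changes of single members could not be resolved. Calls at single times were often lost when 1 library was left out, a fit that leaves 1 library in a group. Of the members' log2 changes, 599 of the leave-out values kept their direction and side of the threshold, 30 lost the call, 3 gained it and 16 changed sign. Under the other alternatives 368 kept both, 9 lost the call, 17 gained it and 3 changed sign. For the other named genes, 204 leave-out values lost the call and 972 kept it, and 58 and 726 did under the other alternatives. At an adjusted p under 0.01, no time point had a lower member (0, 0 and 0), and 1 changed with time in control cells. DESeq2 called 2 members (*Klf4* and *Klf10*) for a difference in effect between times. Without a filter on low counts, 5 members changed with time in control cells and 2 had a difference in effect. With each time fitted alone, 0 members were lower at Day 7 and the *Klf7* change at 4 weeks turned to 0.005. With a replicate block over all libraries, 2 members were higher at Day 7 and the *Klf2* change at Day 7 turned to 0.036. With a replicate block within each time point, 4 members were higher at Day 7, 2 had a difference in effect and the *Klf2* change at Day 7 turned to 0.11, and beyond the values given beside the results, pairing changed no other call of a member against control. The block over all libraries also called *Klf4* from Day 3 to 4 weeks in control cells (-0.72, adjusted p = 0.00902) and its rise from Day 7 to 4 weeks in *Sox17*-*Erg* cells (1.12, adjusted p = 0.0105). Over the leave-outs, members lower at Day 3 numbered 0 to 2, lower at Day 7 0 to 1, higher at 4 weeks 2 to 4, lower at 4 weeks 0 to 1, changing with time in control cells 1 to 3 and in *Sox17*-*Erg* cells 4 to 5. Changes that crossed 0 in leave-outs ranged, for *Klf2*, from -0.54 to 0.79 at Day 7, -0.36 to 0.30 at 4 weeks and -0.29 to 0.14 in the mean; for *Klf6*, from -0.069 to 0.21 at Day 3 and -0.11 to 0.25 at 4 weeks; for *Klf7*, from -0.066 to 0.13 at Day 3, -0.093 to 0.21 at Day 7, -0.11 to 0.086 at 4 weeks and -0.032 to 0.082 in the mean; and for *Klf10*, from -0.21 to 0.10 at Day 3. Over all tested genes, 1115 were higher at Day 3, with 201 without control Day 3 replicate 2 and 1973 with the block within time points, and 795 were lower, with 66 to 1619. At Day 7, 1470 were higher, with 609 to 2142, and 1230 lower, with 297 to 2065. At 4 weeks 1845 were higher, with 1049 to 2405, and 1703 lower, with 648 to 2398. With the longest transcript as length, 32 of 60 levels per kilobase moved by more than the spread between replicates. The causes of these shifts were not tested.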
